A study of Homo sapiens with 12 samples.

Results

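The Krüppel-like factors described here are 10 genes, KLF2, KLF4, KLF5, KLF6, KLF7, KLF9, KLF10, KLF11, KLF13 and KLF16, taken by gene symbol from the platform annotation. They carry 30 of the 54675 probe sets on the array, and they are 10 of the 19775 genes that a probe set names alone. A probe set was tested where at least 3 of the 12 arrays gave it a signal above 136.5, the median of all deposited values, which 25 of the 30 passed. Each of the 10 genes kept at least 1 tested probe set, and 14221 genes did so in all. The series measured messenger RNA in 3 established human sarcoma lines, the rhabdomyosarcoma line A-204, the leiomyosarcoma line SK-LMS-1 and the epithelioid sarcoma line VA-ES-BJ, named as in the labels. Each line was given taurolidine at 250 µmol/l together with TRAIL at 50 ng/ml, taurolidine alone at 250 µmol/l, TRAIL alone at 50 ng/ml, or neither agent, and was harvested after 6 h. Taurolidine is an antimicrobial compound derived from taurine that is also toxic to cultured tumour cells, and TRAIL is the death ligand encoded by TNFSF10. There was 1 array for each line and treatment, so a treatment has n = 3 lines. No line has a repeat of a treatment, and each tumour type named in the labels is represented by 1 line.

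Krüppel-like factors bind GC-rich and CACCC sequences in promoters through C2H2 zinc fingers at their carboxyl end, and they differ mainly in the amino-terminal part that recruits co-activators or co-repressors. KLF2 and KLF4 are known for growth arrest and differentiation, KLF5 for proliferation, and KLF6 and KLF7 as broadly expressed activators. KLF9, KLF13 and KLF16 repress through the SIN3A co-repressor, as do KLF10 and KLF11, which were named for their early induction by TGF-beta. Many of these transcripts are short-lived and change quickly when cells meet growth factors, hormones or stress.

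The deposited values are MAS5 signals, an intensity on a linear scale, and the mean of each array without its lowest and highest 2% lay between 1000.1 and 1000.2. Array medians ran between 123.2 and 155.4. Every array thus has the same trimmed mean, a change in total RNA is not visible in the signals, and fewer cells of a kind cannot be told apart from less RNA per cell. Markers were compared with the labels in the untreated arrays. Of 9 skeletal muscle genes, MYOD1, MYOG, MYF5, MYH3, MYH8 and CHRNA1 did not exceed 104.1 on any of the 12 arrays and did not pass the filter. MYF6, DES and ACTC1 passed it, with up to 237.6, 201.3 and 428, and the sum of the 9 was 819.7 in untreated A-204 cells, 904 in SK-LMS-1 cells and 772.9 in VA-ES-BJ cells. The skeletal muscle markers thus did not set A-204 apart from the other lines and did not bear out its rhabdomyosarcoma label. The summed signal of 7 smooth muscle genes was 66120 in untreated SK-LMS-1 cells, 33050 in A-204 cells and 28240 in VA-ES-BJ cells. CALD1, at 29740, and TPM2, at 24000, made up most of the SK-LMS-1 sum. TAGLN, CNN1 and MYH11 were also highest in untreated SK-LMS-1 cells, MYH11 at only 137. ACTA2 was instead highest in VA-ES-BJ cells, with 4980, against 1686 for SK-LMS-1 cells and 1667 for A-204 cells. DES lay between 126.6 and 144.5 on the untreated arrays, so the genes of this list did not share 1 order of lines. SMARCB1, a chromatin remodelling gene often lost in epithelioid sarcoma, had 152 in untreated VA-ES-BJ cells, 1235 in A-204 cells and 3530 in SK-LMS-1 cells. The summed epithelial markers ran between 15800 and 70870 with taurolidine and between 10740 and 63790 without, and the summed endothelial markers between 390.9 and 3207 with it and between 321.9 and 3092 without. The leukocyte sum ran between 288.1 and 2086 with taurolidine and between 321.6 and 1613 without. The smooth muscle sum ran between 33620 and 77370 with taurolidine and between 28240 and 66120 without. All these ranges overlapped, but they pool lines that already differ without taurolidine, so the overlap cannot show that the markers were unchanged. Both ends of the epithelial, endothelial and smooth muscle ranges were higher with taurolidine, while the leukocyte range widened at both ends. Changes of these sums within a line were not tested.

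The promoters of KLF4, KLF9, KLF13 and KLF11 are printed because these 4 genes changed with taurolidine and each illustrates a different makeup of GC boxes, the kind of sequence that the family itself binds. They were taken from RefSeq on GRCh38.p14, from 250 bases before to 50 bases after a listed transcript start, and 9 of the 10 genes, all but KLF10, matched an entry of that table. The KLF4 window is chr9:107489720-107490019 on the minus strand, the KLF9 window chr9:70414608-70414907 on the minus strand, the KLF13 window chr15:31326585-31326884 on the plus strand and the KLF11 window chr2:10043971-10044270 on the plus strand, at the second of its 2 listed starts. Capitals mark GC boxes, GGGCGG on either strand, and in KLF11 also the cyclic AMP response element TGACGTCA.
KLF4: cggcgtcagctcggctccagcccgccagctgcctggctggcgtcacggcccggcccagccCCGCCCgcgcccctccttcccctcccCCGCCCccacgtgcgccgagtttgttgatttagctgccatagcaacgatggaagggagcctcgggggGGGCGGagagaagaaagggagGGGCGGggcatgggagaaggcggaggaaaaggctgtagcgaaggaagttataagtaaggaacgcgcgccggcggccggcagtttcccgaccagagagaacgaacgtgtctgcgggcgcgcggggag
KLF9: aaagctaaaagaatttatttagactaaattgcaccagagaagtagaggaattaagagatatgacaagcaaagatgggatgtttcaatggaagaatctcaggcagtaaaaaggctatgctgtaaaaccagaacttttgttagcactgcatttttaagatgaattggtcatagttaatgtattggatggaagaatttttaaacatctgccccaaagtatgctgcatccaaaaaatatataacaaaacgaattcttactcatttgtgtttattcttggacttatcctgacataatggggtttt
KLF13: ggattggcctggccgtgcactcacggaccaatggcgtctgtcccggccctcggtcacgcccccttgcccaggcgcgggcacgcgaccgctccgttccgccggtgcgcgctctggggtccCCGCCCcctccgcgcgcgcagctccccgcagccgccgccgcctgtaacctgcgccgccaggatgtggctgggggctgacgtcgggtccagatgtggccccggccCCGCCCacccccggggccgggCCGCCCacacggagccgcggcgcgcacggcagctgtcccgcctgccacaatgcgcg
KLF11: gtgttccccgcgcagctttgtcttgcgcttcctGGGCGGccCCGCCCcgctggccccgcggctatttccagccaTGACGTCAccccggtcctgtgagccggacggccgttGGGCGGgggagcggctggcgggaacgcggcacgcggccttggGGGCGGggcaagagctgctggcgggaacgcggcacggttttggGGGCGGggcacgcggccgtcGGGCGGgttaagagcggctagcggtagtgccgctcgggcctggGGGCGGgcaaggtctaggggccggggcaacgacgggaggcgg
The KLF4 window holds 4 GC boxes, the KLF13 window 3, the printed KLF11 window 7 and the KLF9 window none. The window at the first KLF11 start, not printed, holds 2 GC boxes, 1 CACGTG and no TGACGTCA. A GC box occurs in 44.95% of the 35116 listed promoters of the same length, and TGACGTCA in 1.85%. KLF4 also has 1 E-box, CACGTG, a motif of 7.26% of promoters, and KLF13 has 1 CACCC box, searched as CCACCC and present in 34.29%. The windows of KLF2 and KLF16 hold 6 and 7 GC boxes. These are matches of letters on either strand, GC boxes may overlap one another, and binding was not measured.

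The levels of the family differed between the lines. The test of the cell line term called 9 of the 10 genes at an adjusted p under 0.05, and it called 73.9% of all genes tested (limma, Benjamini-Hochberg). KLF16 was the exception, with an adjusted p of 0.0517. The test used all arrays of a line, those with taurolidine included, so it is not a test of the levels without taurolidine. Levels below are MAS5 signals of 1 probe set per gene, the one with the highest mean, in the TRAIL and the untreated array of each line. KLF4 had 3730 and 3754 in A-204 cells, 1275 and 1584 in SK-LMS-1 cells and 252.5 and 207 in VA-ES-BJ cells. KLF9, a gene induced by glucocorticoids and thyroid hormone, had 2327 and 2389 in A-204 cells, 975.7 and 1058 in SK-LMS-1 cells and 144.8 and 228.1 in VA-ES-BJ cells. KLF5 followed the same order of lines, with 1583 and 1614 in A-204 cells, 498.2 and 548.3 in SK-LMS-1 cells and 47.84 and 73.46 in VA-ES-BJ, where it lay below the table median. KLF4, KLF5 and KLF9 were highest in A-204 and lowest in VA-ES-BJ with no overlap between lines, and so was KLF10, with 12200 and 12990, then 7433 and 8455, then 4351 and 4255.

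Other members had other orders. KLF11 ran the opposite way, with 1011 and 994.9 in VA-ES-BJ cells, 723.6 and 676 in SK-LMS-1 cells and 457.4 and 434.1 in A-204. KLF7 was lowest in A-204, at 354.7 and 387.9, and its 1051 and 1827 in VA-ES-BJ spanned the 1118 and 1129 of SK-LMS-1, so those neighbours were not separated. KLF13, a zinc finger factor known for late control of CCL5 in T cells, was highest in SK-LMS-1, at 5484 and 5628, then A-204, at 3035 and 2873, then VA-ES-BJ, at 905.2 and 963.2. SK-LMS-1 was also highest for KLF2, with 3912 and 3535, against 2898 and 3089 in VA-ES-BJ cells and 1018 and 1956 in A-204 cells. KLF6 spanned a narrow range, with 11690 and 12890 in SK-LMS-1 cells, 8660 and 8979 in A-204 cells and 8447 and 7753 in VA-ES-BJ. KLF16 had 1267 and 1303 in VA-ES-BJ cells and 1455 and 1200 in SK-LMS-1 cells, which overlapped, and 1010 and 975.2 in A-204.

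**Figure D1:**
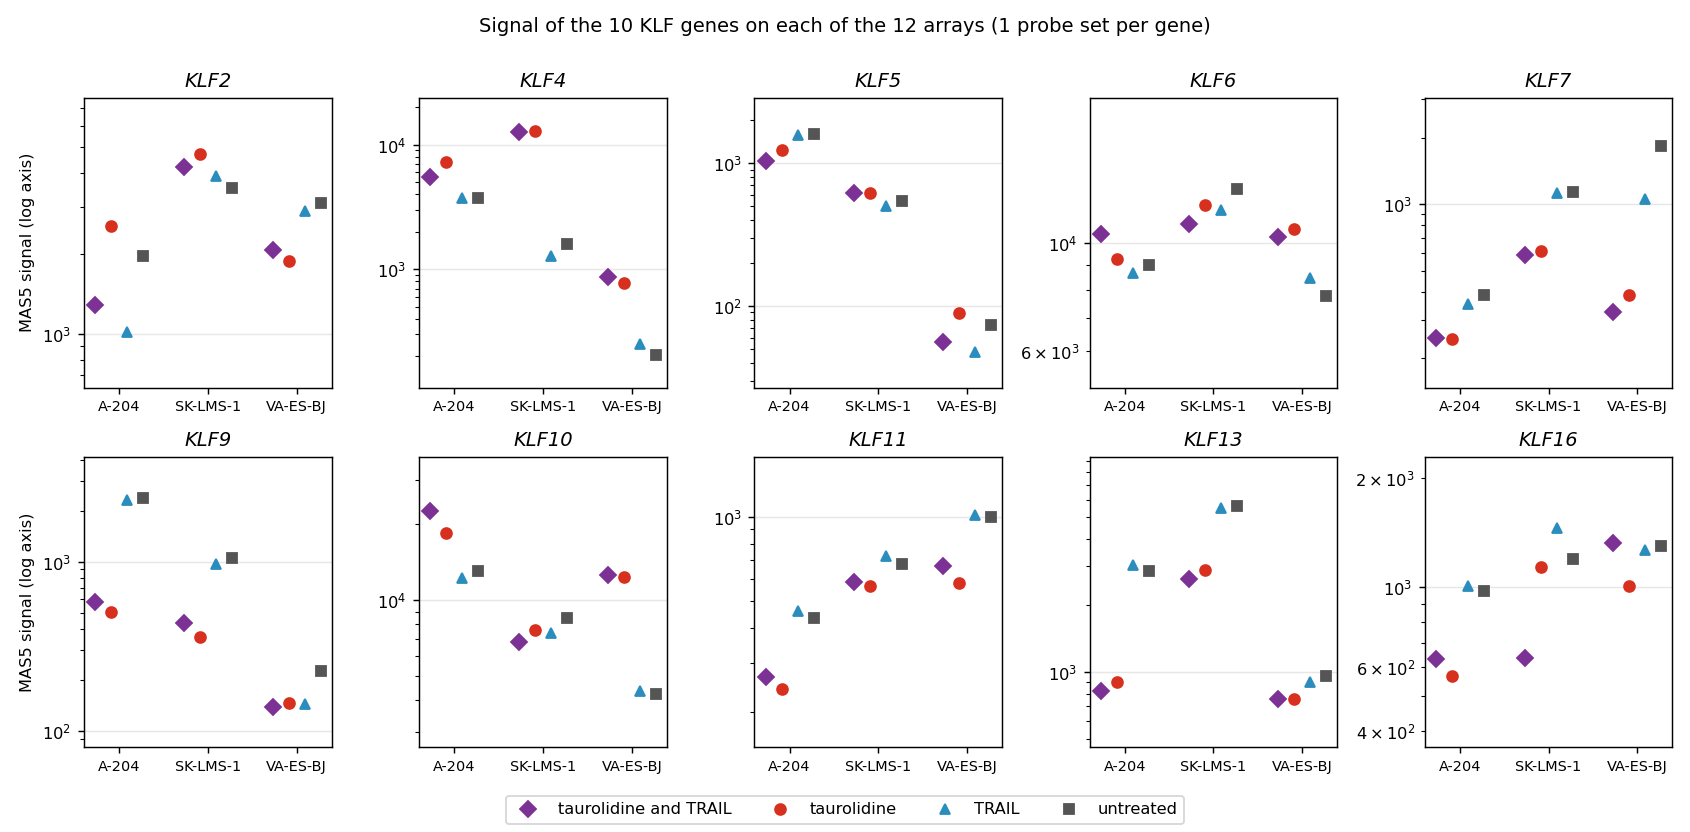
MAS5 signal (log axis) of the probe set that stands for each KLF gene on each of the 12 arrays, by cell line; symbols give the treatment. KLF4 lies higher with taurolidine in every line, and KLF7, KLF11 and KLF13 lie lower with it in every line.

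Taurolidine was followed by higher KLF4 and by lower KLF7, KLF9, KLF11 and KLF13. Over the 6 arrays with taurolidine against the 6 without, 1 of the 10 genes rose, KLF4, and 4 fell, where 16.6% of all genes rose and 18.1% fell. Among 10 genes these are small counts. The median change of the 10 was -0.26 against 0.04 for all 14221 genes, in log2. Taurolidine alone against untreated called KLF4 higher and KLF7, KLF9 and KLF11 lower, with 7.71% of all genes called higher and 11.5% called lower. Taurolidine with TRAIL against untreated called KLF4 higher and KLF7, KLF9, KLF11 and KLF13 lower, with 7.58% of all genes higher and 11.3% lower. Taurolidine with TRAIL against TRAIL alone, which shares no array with taurolidine against untreated, called KLF4 higher and KLF11 lower, with 6.5% of all genes higher and 9.72% lower. Changes are of log2(signal + 11.8), with 11.8 being the 10th percentile of all values, which understates those of dim genes. SEs and p-values come from limma with treatment and cell line as terms over all 12 arrays. Beside leaving out a line, 11 alternatives were tried on the 3 single contrasts and 10 on the contrast over all arrays, and each of the 11 calls of the single contrasts ended under between 4 and 8 of them. Over all arrays the 5 calls ended without the cell line term, that of KLF9 ended also for the mean of its probe sets, and otherwise these calls held. The labels name no separate cultures, so these p-values measure the spread between these arrays alone. In the contrast over all arrays each side holds 6 arrays from 3 lines. The fit counts the arrays of a line with and without TRAIL as separate, so its SEs and p-values are not those of 3 independent lines.

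KLF4, one of the factors used to reprogram somatic cells and a driver of cell cycle arrest, had the largest rise among the members. It had 7245, 12940 and 780 in A-204, SK-LMS-1 and VA-ES-BJ cells given taurolidine alone, against 3754, 1584 and 207 in the untreated cells. With both agents it had 5518, 12690 and 869.9, against 3730, 1275 and 252.5 with TRAIL alone. Within each line both arrays with taurolidine were above both without, and across lines the groups overlapped because the lines start from different levels. The rise over all arrays was 1.90 ± 0.36 in log2 (SE, n = 6 arrays from 3 lines on each side), 3.74-fold. The limma adjusted p was 0.00567, and 6 of 6 pairs were higher. The rise was 1.94 ± 0.51 for taurolidine against untreated (adjusted p = 0.0349), 1.85 ± 0.51 for both agents against untreated (0.0416) and 1.87 ± 0.51 for both agents against TRAIL (0.0443). Without VA-ES-BJ the change over all arrays was 1.96 with an adjusted p of 0.0697, and leaving out any 1 line ended the call of each of the other 3 contrasts, with adjusted p between 0.0742 and 0.222 (limma). The second KLF4 probe set, 220266_s_at, also rose over all arrays, by 1.495 ± 0.38 (limma adjusted p = 0.0208 among probe sets). It was not called for taurolidine against untreated (1.47, adjusted p = 0.107) or for both agents against untreated (0.82, 0.338). In VA-ES-BJ it had 149.1 with taurolidine and 39.82 with both agents, against 40.96 untreated and 10.23 with TRAIL. With values below the table median set to it, the difference over all arrays was 1.06.

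KLF2, known for quiescence of endothelial and T cells, and KLF5, a factor of proliferating epithelium, did not pass in any of the 4 contrasts. KLF2 had 2530, 4744 and 1881 with taurolidine in A-204, SK-LMS-1 and VA-ES-BJ, against 1956, 3535 and 3089 untreated. With both agents it had 1279, 4208 and 2060, against 1018, 3912 and 2898 with TRAIL. The values with taurolidine were above those without in both pairs of A-204 and SK-LMS-1 and below them in both pairs of VA-ES-BJ, and the mean change was 0.00 ± 0.23 (adjusted p = 0.993). KLF5 had 1233, 621.4 and 89.12 with taurolidine, against 1614, 548.3 and 73.46 untreated, and 1037, 621 and 56.23 with both agents, against 1583, 498.2 and 47.84 with TRAIL. The groups overlapped, with a mean change of -0.01 ± 0.15 (adjusted p = 0.964). Its pairs were lower in A-204, at -0.39 and -0.60 in log2, and higher in the other lines.

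KLF7, an activator known from neurons and fat cells, fell. It had 244.8, 610.7 and 388.6 with taurolidine in A-204, SK-LMS-1 and VA-ES-BJ, against 387.9, 1129 and 1827 untreated. With both agents it had 248.4, 588.9 and 326.1, against 354.7, 1118 and 1051 with TRAIL. All 6 pairs were lower, and within each line the arrays with and without taurolidine did not overlap. The change over all arrays was -1.13 ± 0.23 (limma adjusted p = 0.00757), a 2.19-fold lower signal, and without SK-LMS-1 it was -1.25 with an adjusted p of 0.0645. It was -1.24 ± 0.33 for taurolidine against untreated (adjusted p = 0.0346) and -1.33 ± 0.33 for both agents against untreated (0.0285), while both agents against TRAIL gave -1.02 ± 0.33 (0.0696). Leaving out any 1 line ended both of the called contrasts, with adjusted p between 0.0730 and 0.159. For the mean of the 5 tested probe sets of KLF7 the change was -0.54 for taurolidine against untreated (0.205), -0.69 for both agents against untreated (0.113) and -0.61 over all arrays (0.0395). Over the 11 alternatives the adjusted p ran between 0.00182 and 0.729 for taurolidine against untreated and between 0.00368 and 0.668 for both agents. KLF6, an immediate-early gene described as a tumour suppressor, had 9269, 11970 and 10680 with taurolidine, against 8979, 12890 and 7753 untreated. The combination gave 10420, 10900 and 10290, against 8660, 11690 and 8447 with TRAIL, and the groups overlapped. Its change over all arrays was 0.14 ± 0.10 (adjusted p = 0.301).

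KLF9 and KLF13, related repressors that bind SIN3A, both fell, with the lowest pairs in A-204. KLF9 had 506, 360.4 and 146.5 with taurolidine in A-204, SK-LMS-1 and VA-ES-BJ, against 2389, 1058 and 228.1 untreated. Cells given both agents had 580.1, 437.8 and 139.3, against 2327, 975.7 and 144.8 with TRAIL. The arrays with and without taurolidine were apart in the A-204 and SK-LMS-1 lines, while in VA-ES-BJ the 146.5 with taurolidine exceeded the 144.8 with TRAIL. The change over all arrays was -1.25 ± 0.27 (limma adjusted p = 0.00982), 2.38-fold lower, and it missed the threshold without A-204 (-0.83, adjusted p = 0.0987) and without SK-LMS-1 (-1.21, 0.106). It was -1.45 ± 0.39 for taurolidine against untreated (adjusted p = 0.0359) and -1.31 ± 0.39 for both agents against untreated (0.0495), and -1.06 ± 0.39 against TRAIL (0.0982). Without A-204 or SK-LMS-1 the call of taurolidine against untreated ended (adjusted p of 0.179 and 0.221), and without any 1 line that of both agents did (0.0570 to 0.224). For the mean of the 3 tested probe sets of KLF9 the change was -0.64 for taurolidine against untreated (0.170), -0.73 for both agents against untreated (0.128) and -0.56 over all arrays (0.0730), none of which passed. Over the alternatives the adjusted p ran between 0.00484 and 0.971, between 0.0149 and 0.992 and between 0.00102 and 0.574 in the same contrasts.

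KLF13 had 902.5, 2896 and 759.4 with taurolidine in A-204, SK-LMS-1 and VA-ES-BJ, against 2873, 5628 and 963.2 untreated. The combination gave 824.4, 2637 and 759.2, against 3035, 5484 and 905.2 with TRAIL. Both arrays with taurolidine were below both without in each line. The change over all arrays was -1.02 ± 0.22 (limma adjusted p = 0.00945), 2.03-fold lower, and it missed the threshold without A-204 (-0.65, adjusted p = 0.0787) and without SK-LMS-1 (-1.03, 0.0982). Both agents against untreated gave -1.07 ± 0.31 (adjusted p = 0.0479), a call that ended without any 1 line (0.0672 to 0.235). The adjusted p was 0.0617 for taurolidine against untreated and 0.0552 for both agents against TRAIL. KLF16, also of the SIN3A-binding group, had 566.9, 1140 and 1005 with taurolidine, against 975.2, 1200 and 1303 untreated. The combination gave 631.8, 635.2 and 1327, against 1010, 1455 and 1267 with TRAIL, so that 5 of 6 pairs were lower and the VA-ES-BJ pair with TRAIL was not. Its change over all arrays was -0.50 ± 0.17 (adjusted p = 0.0552).

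Of the TGF-beta-inducible repressors KLF10 and KLF11, KLF11 fell and KLF10 did not pass. KLF11 had 241, 562.8 and 577.8 with taurolidine in A-204, SK-LMS-1 and VA-ES-BJ, against 434.1, 676 and 994.9 untreated. Cells given both agents had 265.8, 580.8 and 667.2, against 457.4, 723.6 and 1011 with TRAIL. Its 6 pairs were all lower, and within each line the arrays did not overlap. The change over all arrays was -0.59 ± 0.10 (limma adjusted p = 0.00306), 1.5-fold lower and of the smallest SE among the 5 members called. It missed the threshold without A-204 (-0.48, adjusted p = 0.0666) and without VA-ES-BJ (-0.54, 0.0568). KLF11 was the only member besides KLF4 called in each of the 3 single contrasts with taurolidine, at -0.62 ± 0.14 for taurolidine against untreated (0.0190), -0.49 ± 0.14 for both agents against untreated (0.0419) and -0.55 ± 0.14 for both agents against TRAIL (0.0320). Leaving out any 1 line ended each of these 3 calls, with adjusted p between 0.0516 and 0.258.

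KLF10 had 18370, 7584 and 12330 with taurolidine in A-204, SK-LMS-1 and VA-ES-BJ, against 12990, 8455 and 4255 untreated. The combination gave 22560, 6824 and 12540, against 12200, 7433 and 4351 with TRAIL. It was higher with taurolidine in both pairs of A-204 and VA-ES-BJ, and its SK-LMS-1 pairs were -0.16 and -0.12 in log2. The change over all arrays was 0.69 ± 0.25 and did not pass, at a limma adjusted p of 0.0666. Without SK-LMS-1 the change was 1.11 with an adjusted p of 0.0329.

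**Figure D2:**
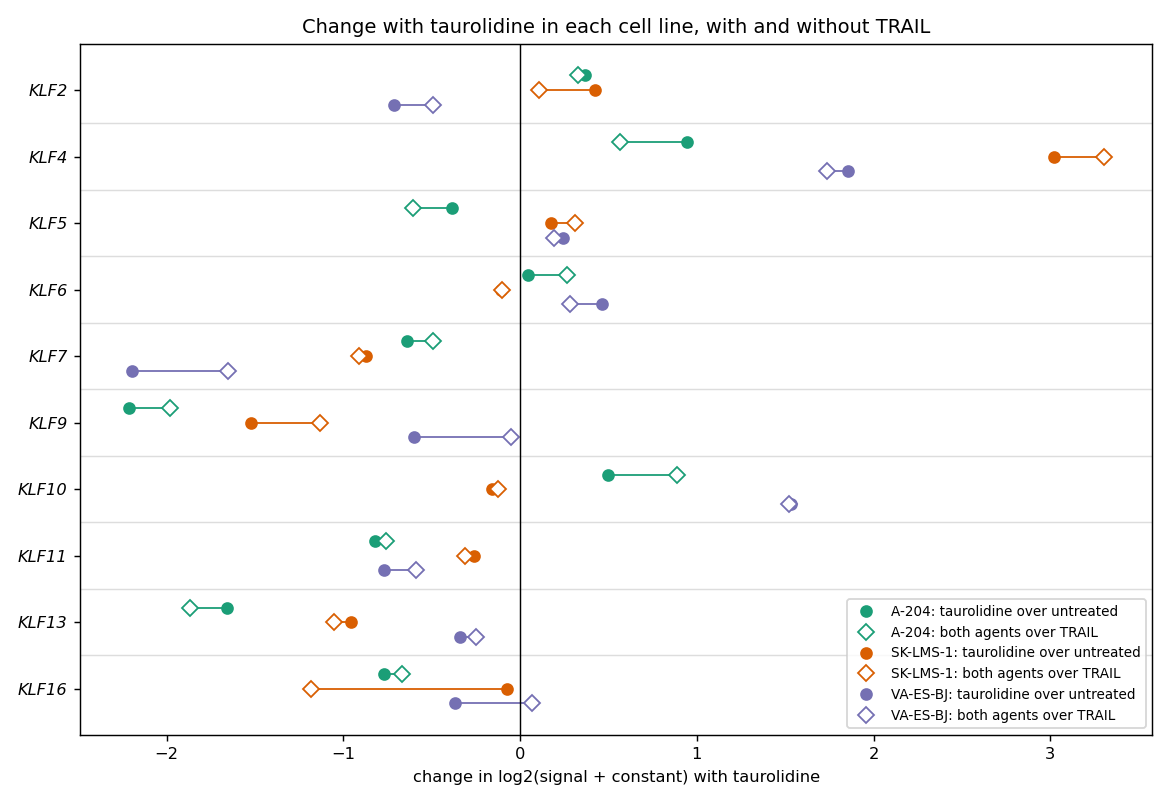
Change in log2(signal + constant) with taurolidine for each KLF gene in each cell line; filled circles are taurolidine over untreated, open diamonds both agents over TRAIL, and a line joins the 2 pairs. KLF4 lies furthest right in SK-LMS-1, at 3.02 and 3.30, and KLF9 and KLF13 lie furthest left in A-204.

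The size of the change with taurolidine differed between the lines for 4 of the 10 genes, where 3.5% of all genes passed the same test. This was the limma F test of cell line by taurolidine, in which the arrays with and without TRAIL are the 2 repeats within a line. KLF13 had an adjusted p of 0.00538, and the mean of its 2 pairs was -1.76 in A-204 cells, -1.004 in SK-LMS-1 cells and -0.29 in VA-ES-BJ cells. KLF9 had the same order of lines, at -2.10, -1.33 and -0.33, with an adjusted p of 0.0367. In VA-ES-BJ its signal was 228.1 untreated and 144.8 with TRAIL. These lie near the table median of 136.5, which limits the fall that could be seen there. KLF4 was 8.95-fold higher in SK-LMS-1 cells, 3.48-fold in VA-ES-BJ cells and 1.69-fold in A-204 cells, with an adjusted p of 0.00931. KLF10 had mean changes of 1.53 in VA-ES-BJ cells, 0.69 in A-204 cells and -0.14 in SK-LMS-1 cells, with an adjusted p of 0.0122. The line with the largest change was therefore A-204 for KLF9 and KLF13, SK-LMS-1 for KLF4 and VA-ES-BJ for KLF10. KLF7, whose mean change was -1.93 in VA-ES-BJ cells, -0.89 in SK-LMS-1 cells and -0.57 in A-204 cells, had an adjusted p of 0.0979. With 2 lines in place of 3, each of the 4 calls ended in at least 2 of the 3 cases. The adjusted p of KLF4 was then 0.0993 without A-204 and 0.130 without SK-LMS-1, and that of KLF9 0.272, 0.0906 and 0.133 without A-204, SK-LMS-1 and VA-ES-BJ. That of KLF10 was 0.114 when SK-LMS-1 was left out and 0.131 when VA-ES-BJ was, and that of KLF13 0.135 without A-204 and 0.0939 without VA-ES-BJ. Under the 9 alternatives that keep all 3 lines the calls of KLF10 and KLF13 held. That of KLF4 ended for the mean of its probe sets (0.0573), and that of KLF9 ended under 4, with no filter (0.0811), under the spike scaling (0.0594), for the mean of its probe sets (0.240) and with every probe set as a feature (0.0680).

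TRAIL called none of the 10 genes in any contrast. At the limma threshold 0% of all genes passed for TRAIL against untreated, 0% for both agents against taurolidine, 0% for the 6 arrays with TRAIL against the 6 without, and 0% for the departure of the combination from the sum of the single changes in log2. At an unadjusted p under 0.05 the counts over all genes were 563, 374, 397 and 537, and none was a member. The changes of the members with TRAIL against untreated ran between -0.31 ± 0.33 for KLF7 and 0.10 ± 0.24 for KLF16. Departures from additivity ran between -0.19 ± 0.34 for KLF16 and 0.39 ± 0.55 for KLF9. A single-line change of some size was seen for KLF2 in A-204, which had 1018 with TRAIL against 1956 untreated, and 1279 with both agents against 2530 with taurolidine. These pairs were -0.93 and -0.98 in log2, and the other lines had pairs between -0.17 and 0.15. An F test of cell line by TRAIL, added after seeing the data, gave KLF2 a p of 0.00604 and an adjusted p of 0.592, and it called 0% of all genes, with 729 at an unadjusted p under 0.05. KLF11 was higher with TRAIL in 6 of 6 pairs, by 0.02 to 0.20, and KLF5 was lower with it in 6 of 6 pairs, between -0.57 and -0.0008, and neither difference passed.

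**Figure D3:**
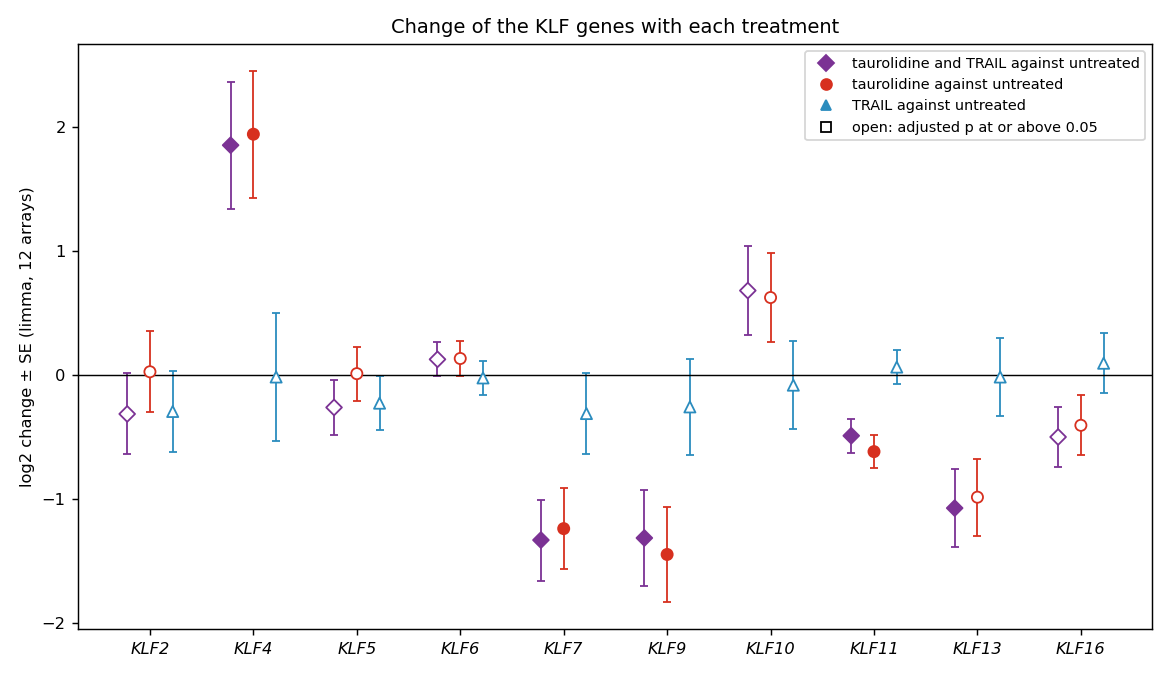
Log2 change (limma, bars are SE) of each KLF gene with both agents, with taurolidine and with TRAIL, each against untreated; filled symbols have an adjusted p under 0.05. The TRAIL symbols lie between -0.31 and 0.10, and KLF4 is the filled pair above 0.

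The scaling of the arrays bears on which members are called. The 27 probe sets of the poly-A control transcripts, which are added to the RNA before labelling, were brighter with taurolidine in every line, by 0.73 in A-204 cells, 0.52 in SK-LMS-1 cells, 0.54 in VA-ES-BJ cells and 0.59 on average in log2. Scaled to these controls, the median of all genes was -0.53 with taurolidine against 0.04 as deposited, and 79 genes rose and 9467 fell, against 2357 and 2570 as deposited. Under this scaling KLF4 still rose, by 1.32 in log2, 8 members fell, and KLF10 was at 0.10 without passing. KLF2, KLF5 and KLF6 had -0.59, -0.57 and -0.45, close to the shift of all genes, and KLF16 had -1.09. The labels do not say that the controls were added in equal amount, so the spike-scaled values rest on that assumption. Over all arrays, quantile normalisation and equal array medians gave counts of 1 higher and 4 lower members, as the deposited scaling did. The single contrasts moved. Taurolidine against untreated called 1 member lower under quantile normalisation and 2 with equal medians, against 3 as deposited. Both agents against untreated called 1 lower under each, against 4 as deposited.

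**Figure D4:**
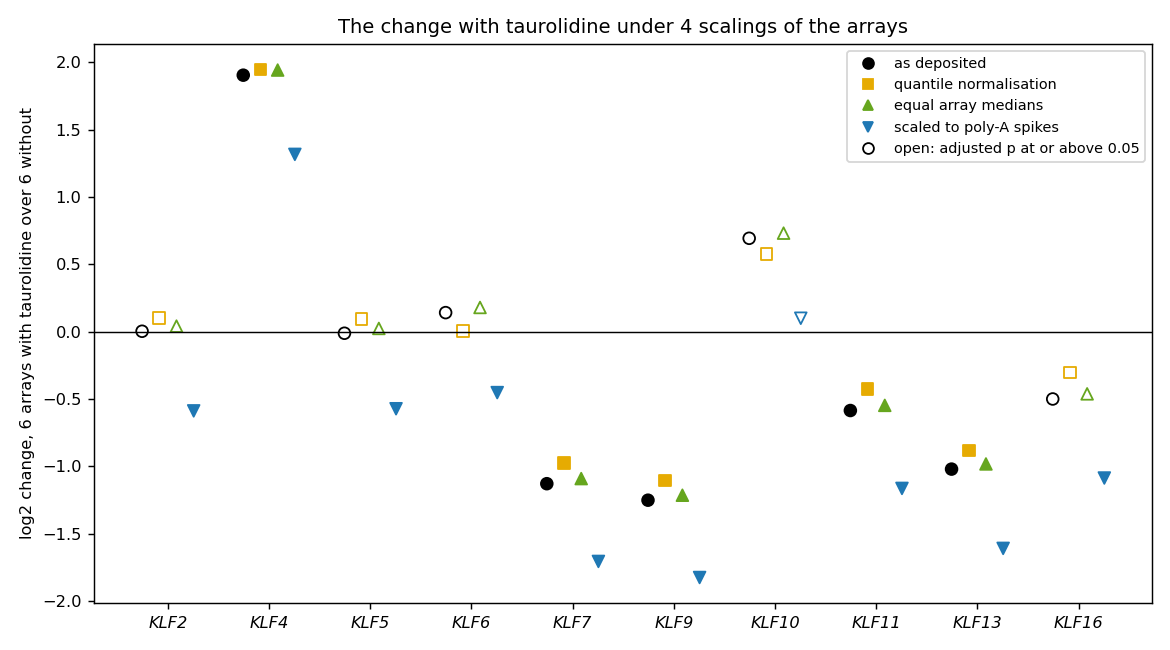
Log2 change of each KLF gene, 6 arrays with taurolidine over 6 without, under 4 scalings of the arrays; open symbols have an adjusted p of 0.05 or more. KLF4 stays above 0 and KLF7, KLF9, KLF11 and KLF13 below 0 under all 4, while KLF6 lies at 0.14 as deposited and at -0.45 when scaled to the poly-A controls.

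The probe sets of a gene did not always move together. Fitted as features of their own, 4 of the 25 tested KLF probe sets rose and 8 fell with taurolidine over all arrays, where 11% of all probe sets rose and 17.4% fell. Both probe sets of KLF11 fell, the second, 1553137_s_at, by 0.64 in log2 (limma adjusted p = 0.0443). That call ended under quantile normalisation (0.0629) and with equal array medians (0.0592). In SK-LMS-1 this probe set had 200.1 with taurolidine against 197.8 untreated, and 177.2 with both agents against 189.9 with TRAIL. For KLF7 all 5 were lower, between -1.13 and -0.26, with 2 called. KLF6 split: 208961_s_at rose by 0.36 ± 0.10 (adjusted p = 0.0356), 211610_at fell by 0.45 ± 0.11 (0.0158), and the other 3 lay at 0.14 without passing. The rise of 208961_s_at became -0.24 under the spike scaling. The KLF6 probe set 211610_at had 249.3, 158.3 and 185.6 with taurolidine in A-204, SK-LMS-1 and VA-ES-BJ, against 398.5, 228.7 and 425.3 untreated. With both agents it had 237.1, 145.5 and 238.8, against 308, 145.9 and 245.6 with TRAIL, so that the last pairs of SK-LMS-1 and VA-ES-BJ were nearly equal. KLF9 also split: 203543_s_at fell by 1.25, 203542_s_at had -0.92 ± 0.45 (adjusted p = 0.164), and 230636_s_at rose by 0.49 ± 0.16, just inside the threshold (0.04999), and lay at -0.05 under the spike scaling.

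For KLF16, 1 of the 2 probe sets was called. 224111_x_at had 30.88, 36.62 and 72.75 with taurolidine in A-204, SK-LMS-1 and VA-ES-BJ, against 453.9, 127.7 and 403.2 untreated, and 28.5, 19.4 and 150.9 with both agents, against 452.5, 238.6 and 421.2 with TRAIL. It fell by 2.54 ± 0.32 in log2 (limma adjusted p = 0.00127). Of its 6 arrays with taurolidine 5 lay below the table median of 136.5, against 1 of 6 without, so it passed the filter through the arrays without taurolidine, and its signal was at least 2.33-fold lower with all values below that median set to it. 226328_at, which stands for the gene, did not pass. The mean of both probe sets includes 224111_x_at, so it carries the same limit and is no separate support for a fall of KLF16. For that mean KLF16 was called lower in each contrast with taurolidine, at -1.41 for taurolidine against untreated (0.0232), -1.42 for both agents against untreated (0.0233), -1.62 for both agents against TRAIL (0.0172) and -1.52 over all arrays (0.00225). The 230636_s_at values of KLF9 were 424.3, 155.4 and 70.05 with taurolidine, against 202.4, 119.5 and 51.62 untreated. They were 465.8, 117.9 and 104 with both agents, against 276.8, 115.8 and 71.89 with TRAIL, and 3 of 6 with taurolidine and 4 of 6 without lay below the table median. The suffix x in 224111_x_at and in 240432_x_at of KLF7 marks probes that may also hybridise to related transcripts. The 5 probe sets that did not pass the filter belong to KLF9, 2 of them with no signal above 121.6, and KLF13, 3 of them with none above 167.4.

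**Figure D5:**
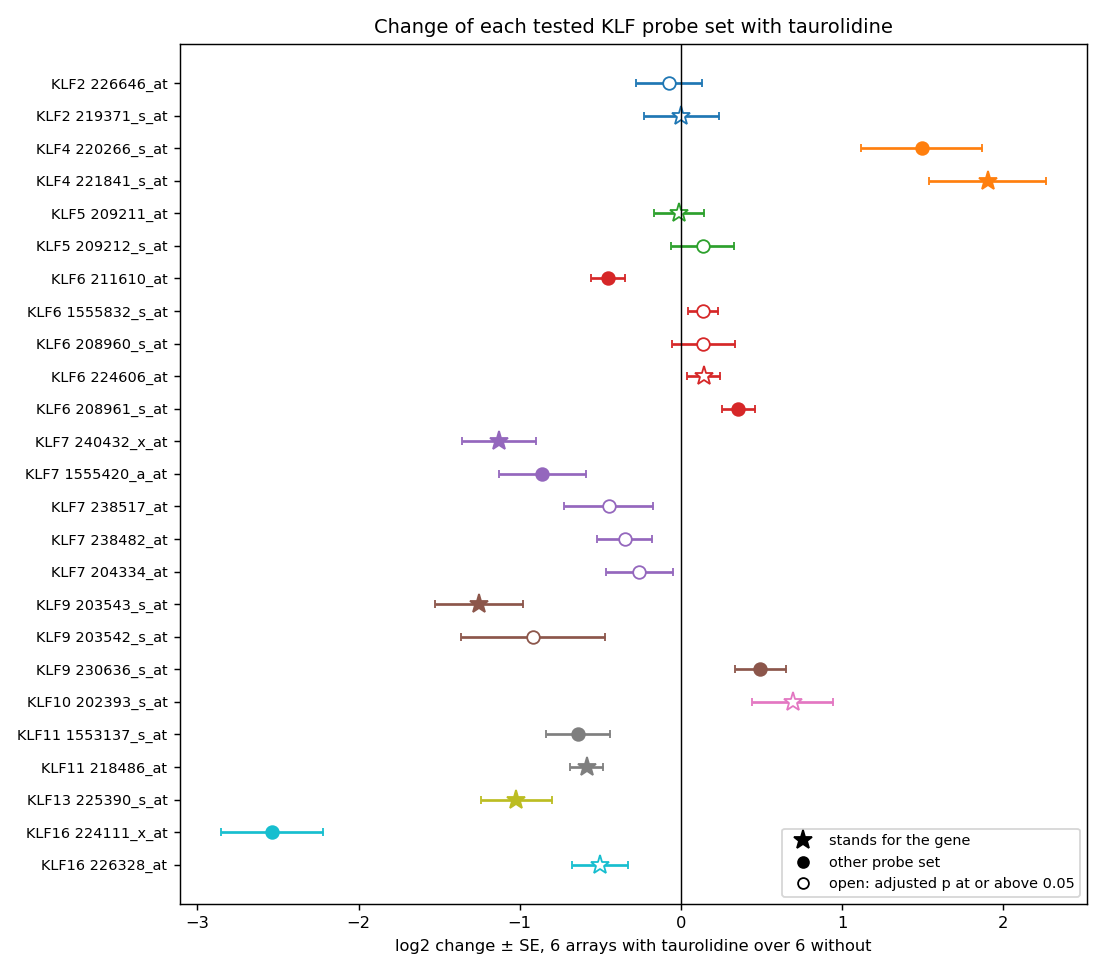
Log2 change (limma, bars are SE) of each of the 25 tested KLF probe sets, 6 arrays with taurolidine over 6 without; stars mark the probe set that stands for its gene, and open symbols have an adjusted p of 0.05 or more. KLF6 and KLF9 have called probe sets on both sides of 0, and those of KLF4, KLF7, KLF11 and KLF16 lie on 1 side each.

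Relatives of the 10 genes were examined beside them. Of the 8 other KLF genes listed, 7 were on the array and 3 were tested, and 1 of these fell over all arrays with taurolidine. KLF3, a repressor that binds the CtBP co-repressors, had 1567, 961.6 and 1116 with taurolidine in A-204, SK-LMS-1 and VA-ES-BJ, against 3924, 1370 and 2225 untreated. It had 1608, 1071 and 1248 with both agents, against 3199, 1129 and 2078 with TRAIL, and fell by 0.77 ± 0.14 in log2 (limma adjusted p = 0.00484). KLF12 had -0.33 ± 0.14 (0.115). Of 9 related SP genes, 8 were on the array and 6 were tested, and none passed in limma, with 1 at an unadjusted p under 0.05. The lowest adjusted p was that of SP3, a widely expressed factor of GC boxes, with -0.30 ± 0.11 (0.0659). The spike scaling called 5 of the 6 SP genes lower.

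Regulators and partners of the family, a list of 29 genes that were all tested, had 1 gene higher and 11 lower over all arrays with taurolidine, where 16.6% of all genes rose and 18.1% fell, with a median of -0.23 against 0.04 for all genes. FBXW7, the substrate receptor of a ubiquitin ligase known to degrade KLF5, had 234.6, 211.6 and 110.4 with taurolidine in A-204, SK-LMS-1 and VA-ES-BJ, against 956.8, 860.2 and 736.5 untreated. It had 335.4, 250.3 and 115.5 with both agents, against 931.6, 737.5 and 650.3 with TRAIL. All 6 arrays with taurolidine were thus below all 6 without, and FBXW7 fell by 1.98 ± 0.15 in log2 (limma adjusted p = 0.000105), 3.95-fold. SIAH1, a ubiquitin ligase described to act on KLF10, fell by 1.57 ± 0.29 (0.00458), and its change differed between lines (interaction adjusted p = 0.0136), with pairs of -0.77 and -0.54 in A-204 and -2.59 and -2.47 in VA-ES-BJ. SMURF2, a ligase of TGF-beta signalling, fell by 0.81 ± 0.18 (0.0115), and CREBBP, an acetyltransferase co-activator, by 0.77 ± 0.12 (0.00212). The other 7 genes called lower lay between -0.64 and -0.24, and the count lower was 9 under quantile normalisation and 10 with equal array medians. The 1 gene higher was HDAC1, a histone deacetylase, at 0.43, and it lay at -0.17 under the spike scaling, where 27 of the 29 fell. HDAC1 was named after its value was seen.

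Genes known as targets of these factors were called about as often as all genes. Of 32 listed, 29 were on the array and 28 were tested, and 4 rose and 5 fell over all arrays with taurolidine, where 16.6% of all genes rose and 18.1% fell. The median was 0.12 against 0.04 for all genes. SMAD7, the inhibitory SMAD that KLF10 and KLF11 are known to repress, had 27.92, 222.2 and 129.4 with taurolidine in A-204, SK-LMS-1 and VA-ES-BJ, against 120.5, 926 and 1814 untreated. It had 13.12, 179.3 and 87.49 with both agents, against 130.7, 808 and 1326 with TRAIL, and fell by 2.63 ± 0.29 in log2 (limma adjusted p = 0.000562). Of these values 4 of 6 with taurolidine and 2 of 6 without lay below the table median, all 4 of A-204 among them. SMAD7 thus passed the filter through the arrays without taurolidine. With values below that median set to it, SMAD7 was at least 3.67-fold lower, -1.87 in log2. PDGFA, a growth factor gene, fell by 1.38 ± 0.16 (0.000824), by 0.84 with taurolidine against untreated and 1.84 with both agents against untreated. TAGLN, a smooth muscle actin-binding gene, rose by 0.43 ± 0.09 (0.00951), and TXNRD2, a mitochondrial thioredoxin reductase, by 0.37 ± 0.09 (0.0153). Under the spike scaling both were below 0, at -0.16 and -0.22, and 19 of the 28 targets fell with none higher. TGFB1 and TGFBR1 are counted in this list and among the regulators.

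The genes whose pattern was most like a member's were found by the Pearson correlation of line-centred log2 signals over the same 12 arrays, which share lines and treatments, for the 4 members of largest called change. KLF4 was closest to RGS2, a regulator of G protein signalling, to GMDS and to HES1, a Notch target, at r of 0.99, 0.99 and 0.98. KLF9 was closest to SGMS2, UBE2J1 and WTIP, at 0.99, 0.99 and 0.98. KLF7 was closest to the ubiquitin ligase genes RNF169 and RNF138, at 0.98 and 0.97, and to GLIS2 at 0.97. KLF13 was closest to ZNHIT6, PDZD8 and SNX9, at 1.00, 0.99 and 0.99. These are the highest correlations among all genes tested and describe these arrays.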

How the data were processed

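The deposited table holds 1 linear intensity per probe set and array, made with MAS5 per the submitters' processing notes, with version, detection calls and scaling target not given in the sources used here. Genes were named from GEO's platform annotation with symbols updated through RefSeq. Of 54675 probe sets 41097 had 1 gene, 1801 had several and 11777 had none listed. The 62 control probe sets entered no test. No further normalisation was applied. log2(value + 11.8) was fitted in limma 3.58.1 (R 4.3.3) on cell line and treatment, 6 residual and 1.98 prior degrees of freedom, and Benjamini-Hochberg adjustment over 14221 genes or 32421 probe sets at 0.05. The contrast over all arrays with taurolidine and the test of cell line by taurolidine were tried on simulated data with independent noise per array. The other contrasts and tests were not scored there. The number of arrays limits the precision.

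Arrays are paired across treatments by cell line. Residuals about the mean of each treatment correlated at 0.857 to 0.908 within lines and at -0.534 to -0.389 between lines. The negative values between lines follow from centring 3 lines within each treatment, so only the values within lines bear on the pairing. The text names every member, up to 4 genes of each other list by largest change over all arrays with taurolidine, passing ones first, and the 3 genes most like each of 4 members. Outside this rule it names HDAC1, and TGFB1 and TGFBR1 as genes counted in both lists. Members and lists were chosen with earlier results of these data known, and the line by TRAIL test and the limit on dim signals were added after seeing the data. Alternatives covered the constant, the filter, the scaling, the probe set chosen, the cell line term, the arrays fitted and the variance model.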

Additional observations from a re-analysis of the deposited data

Results flagged for a closer look

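4 members were singled out because their change with taurolidine differed between the 3 cell lines in a test of the difference itself, the limma F test of cell line by taurolidine. The adjusted p was 0.00538 for KLF13 and 0.0367 for KLF9, both with their largest fall in A-204. It was 0.00931 for KLF4, with its largest rise in SK-LMS-1, and 0.0122 for KLF10, whose 2 pairs were higher in A-204 and VA-ES-BJ and slightly lower in SK-LMS-1. The repeats within a line are the arrays with and without TRAIL, so any change with TRAIL enters the error of this test.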

How the results depend on the processing

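The calls rest on 3 lines with no repeat and on the cell line term. Without the replicate block, that is without the pairing by cell line, limma called 0 members higher and 0 lower in every contrast with taurolidine. Of all 14221 genes it then called 6 to 10 higher and 136 to 152 lower in the 3 single contrasts, and 49 and 498 over all arrays. Fitting only the arrays compared also gave 0 and 0 in the 3 single contrasts, with fewer arrays in each fit, and it called 0 of all genes. The tables hold no detection calls and no repeat, so the precision of a single line is unknown.

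The counts over all genes moved with the setting as well. Taurolidine against untreated called 1097 of 14221 genes higher and 1638 lower as reported. The counts were 39 and 7967 under the spike scaling and 1375 and 1280 under quantile normalisation. With no filter they were 509 and 1153 of 19775, and without a line 28 to 49 and 312 to 392. With taurolidine against untreated 1 member was called higher and 3 lower. These counts were 0 and 1 with no filter on dim probe sets, 1 lower under quantile normalisation, 0 and 6 under the spike scaling, and 0 higher and 0 to 1 lower when a line was left out. For both agents against untreated, 1 and 4 as reported, they were 0 and 0 with no filter, 0 higher under the spike scaling and for the mean of all tested probe sets, 0 and 1 with every probe set as a feature, 2 lower with a floor of 1, 1 lower under quantile normalisation and 1 lower with equal array medians, and 0 and 0 without any 1 line. For both agents against TRAIL, 1 and 1 as reported, they were 0 and 0 with no filter, 0 higher with equal medians, for the mean of probe sets and with every probe set as a feature, 0 and 5 under the spike scaling, 0 lower under quantile normalisation, 2 lower with a constant of 50, 4 lower with a trended robust variance, and 0 and 0 without any 1 line. Over all arrays, 1 and 4 as reported, they were 8 lower under the spike scaling, 2 higher with the trended robust variance, and 0 to 2 higher and 1 to 3 lower without a line. The 4 members that differed between lines were 2 for the mean of probe sets, 3 with no filter, under the spike scaling and with every probe set as a feature, each time without KLF9, and 1 without any 1 line. Among all genes both agents against untreated called 1078 and 1611 as reported, 61 and 4888 under the spike scaling and 453 and 1100 with no filter. Both agents against TRAIL called 925 and 1382, 57 and 6262, and 290 and 875 in the same settings. The contrast over all arrays called 2357 and 2570 as reported, 79 and 9467 under the spike scaling, and 503 to 1142 and 1258 to 1743 without a line. For the mean of probe sets the members called lower with taurolidine against untreated were KLF11 and KLF16, without KLF7 and KLF9.

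Changes of sign concerned members that were not called as deposited. Some passed with the other sign under the spike scaling. KLF6 was then called lower for taurolidine against untreated (limma adjusted p = 0.0198). KLF2 and KLF6 were also among the 8 members that fell over all arrays under that scaling, where 9467 of 14221 genes fell. KLF2 was -0.61 for taurolidine against untreated and -0.59 over all arrays under the spike scaling, and -0.029 and -0.035 for the mean of probe sets. Against TRAIL it was 0.090 under quantile normalisation. KLF5 was -0.012 with a constant of 50 and -0.60 under the spike scaling for taurolidine against untreated, 0.084 for both agents against untreated with the mean of probe sets, and 0.064 and 0.094 against TRAIL under quantile normalisation and with that mean. Over all arrays it was 0.0019 with a floor of 1, 0.10 under quantile normalisation, 0.024 with equal medians and 0.062 with the mean of probe sets. KLF6 was -0.0091 for taurolidine and -0.013 for both agents against untreated under quantile normalisation, and -0.50, -0.33, -0.40 and -0.45 in the 4 contrasts under the spike scaling. KLF10 was -0.012 for taurolidine against untreated under the spike scaling. With a line left out, KLF2 lay between -0.17 and 0.40 for taurolidine against untreated, between -0.19 and 0.21 for both agents against TRAIL and between -0.17 and 0.31 over all arrays. KLF5 lay between -0.10 and 0.21, between -0.21 and 0.25 and between -0.14 and 0.23 in the same 3 contrasts. KLF6 lay between -0.030 and 0.25 for taurolidine and between -0.014 and 0.31 for both agents against untreated. The cause was not tested.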

Other observations

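KLF15, a glucocorticoid-responsive factor of muscle and liver metabolism outside the 10 genes, had 163.9, 62.87 and 345.2 with taurolidine in A-204, SK-LMS-1 and VA-ES-BJ, against 56.52, 54.63 and 72.02 untreated. With both agents it had 338.8, 33.68 and 271, against 92.85, 86.06 and 32.91 with TRAIL. The change over all arrays was 1.15 ± 0.50 in log2 and did not pass (limma adjusted p = 0.109). All 6 values without taurolidine and 2 of 6 with it lay below the table median. KLF15 thus passed the filter through the arrays with taurolidine, and with such values set to that median the difference was 0.65. Among the SP genes, SP5, a target of Wnt signalling, had 33.16, 73.79 and 27.41 with taurolidine, against 149.6, 254.5 and 32.61 untreated. With both agents it had 110.9, 79.32 and 15.7, against 125.1, 249.7 and 7.05 with TRAIL, and all 6 values with taurolidine and 3 of 6 without lay below the table median. Its change over all arrays was -0.80 ± 0.36 and did not pass (limma adjusted p = 0.125). SP4 and SP6 had -0.24 ± 0.12 (0.159) and 0.15 ± 0.16 (0.499).

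Among the members, line-centred log2 signals over the 12 arrays correlated at 0.98 between KLF9 and KLF13 and at 0.93 between KLF6 and KLF10, and at -0.80 between KLF4 and KLF7. KLF10 and KLF11 correlated at -0.82. The arrays share lines and treatments, so these values describe this set of arrays.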
